A study of Mus musculus with 8 samples.

Results

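Necroptosis and extrinsic apoptosis are routes by which a cell can die from outside signals without the pore protein gasdermin D, and 8 of their genes were followed here in macrophages with and without Gsdmd. They were taken by symbol as Ripk1, Ripk3, Mlkl, Zbp1, Casp8, Fadd, Cflar and Xiap, which are 8 of the 54532 genes in the count table. The cells were bone marrow-derived macrophages (BMDMs), grown from marrow with macrophage colony-stimulating factor for 6 days and given no treatment, from wild-type (WT) and Gsdmd-/- mice in 4 libraries per genotype. The WT mice were bought female C57BL/6J mice of 6 to 8 weeks. The Gsdmd-/- mice were a gift from another institute and were kept in a university facility. The study's culture method describes the marrow donors as female C57BL/6J mice aged 6 to 8 weeks, without naming a genotype. The age and background of the Gsdmd-/- mice are not given separately, and genotype and colony of origin cannot be told apart. Nothing states that the libraries came from separate mice, so the p-values below measure the spread between these libraries only.

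When ligands such as TNF or FasL engage their receptors, the adaptor FADD draws in caspase-8, which starts apoptosis by cleaving executioner caspases. Caspase-8 paired with cFLIP, the product of Cflar, cleaves RIPK1 and RIPK3 and so holds necroptosis in check. If caspase-8 is blocked, RIPK1 and RIPK3 assemble through a shared interaction motif called the RHIM, RIPK3 phosphorylates MLKL, and MLKL ruptures the plasma membrane. ZBP1, a sensor of Z-form nucleic acids that is induced by interferon, can engage RIPK3 directly, and XIAP inhibits caspases. Macrophages express the necroptosis machinery and can also die by pyroptosis, which gasdermin D executes.

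Total counts ranged from 14935114 to 16794810 per library. The targeted gene Gsdmd was at 75.3 ± 14.1 CPM (counts scaled to the same library total) in WT and 16.2 ± 1.56 CPM in Gsdmd-/- libraries (SD, n = 4 each), with no shared range (p = 0.0286 by a two-sided exact permutation test, the smallest p that 4 against 4 allow). All 8 macrophage markers examined, which include Adgre1 and Csf1r, passed the filter on low counts, with a summed level, mostly Lyz2, of 15300 to 23500 CPM in WT and 19400 to 23400 CPM in Gsdmd-/- libraries. Neutrophil, lymphoid, stromal, mast cell and erythroid marker lists summed to at most 6.68 CPM in any library, and Ly6g, Cd3d, Ncr1, Hbb-bs and Hba-a1 had no counts. WT 2 and WT 3 stood apart from the other 6 libraries on the first principal component, which held 43.6% of the variance, with scores of 45.4 and 38.8 against -25.9 to -7.19. Some macrophage markers shifted in these 2 libraries, in different directions. Fcgr1 was lower there, at 7.09 and 6.66 CPM against 17.8 to 40.7 CPM elsewhere, as was Cd68, at 414 and 424 against 621 to 849 CPM. Mertk was higher, at 250 and 212 against 101 to 142 CPM, as was Adgre1, at 319 and 326 against 242 to 291 CPM. Csf1r was at 938 and 985 CPM in WT 2 and WT 3 against 958 to 1310 CPM elsewhere, which does not set them apart. There the dendritic cell marker Clec9a was at 49.1 and 45.3 CPM, against 14.5 to 18.3 CPM elsewhere, and the endothelial marker Kdr was at 23.6 and 21.1 CPM, against 44.1 to 77.8 CPM elsewhere. The other markers of the dendritic and endothelial lists did not follow Clec9a and Kdr. The endothelial Cdh5 was at 5.38 and 5.86 CPM in WT 2 and WT 3 and 2.78 to 5.78 CPM elsewhere. The dendritic Zbtb46 was at 2.69 and 2.26 CPM and at most 3.10 CPM elsewhere. Flt3, Ccr7, Xcr1, Siglech and Tek had at most 1.22 CPM in any library. The part of these shifts in the results below was not tested.

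None of the 8 genes passed an adjusted p of 0.05 over the 12911 genes tested, by the quasi-likelihood test of edgeR or by limma voom, the exact test of edgeR or DESeq2, whereas 0.349%, 0.333%, 1.91% and 2.26% of all genes tested did so by these tests in turn. At the cutoff the study used, an unadjusted p under 0.05 and a log2 fold change of 0.5 or more in either direction, 0 of the 8 were higher in Gsdmd-/- macrophages (1.54% of all genes) and 0 were lower (3.28% of all genes). Without a minimum fold change, Ripk3 and Cflar had an unadjusted p under 0.05 and were lower, 2 of 8 beside 7.30% of all genes, and none was higher, beside 4.74% of all genes. The 8 log2 fold changes lay between -0.36 and 0.21 with a median of -0.08, and the median of all genes tested was -0.01. For none of the 8 did the WT and Gsdmd-/- libraries separate completely, which is close to the 7.60% of all genes that did. As these are cultures of whole cells, fewer cells that express a gene and less RNA per cell cannot be told apart.

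**Figure D1:**
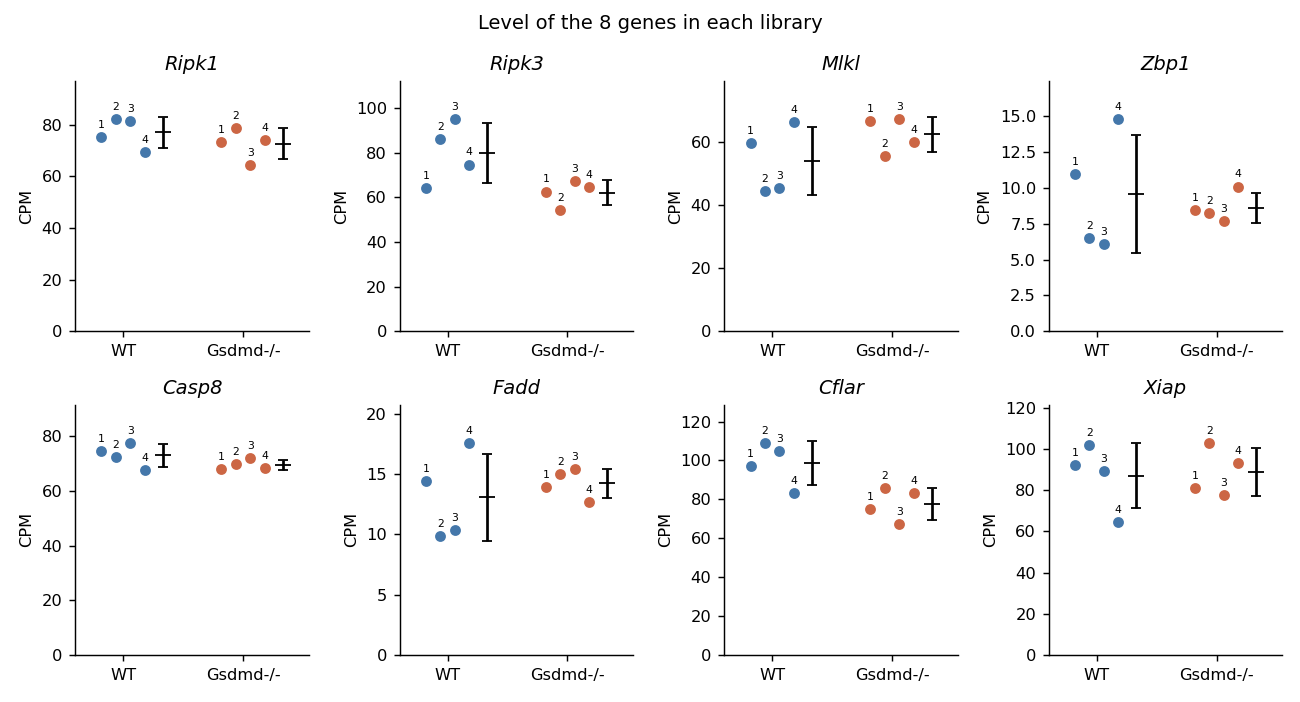
CPM (vertical axes, from 0) of the 8 genes in the 4 WT (blue) and 4 Gsdmd-/- (orange) libraries. Points carry the library number, and the bar beside them is the mean ± SD. The ranges of the genotypes overlap in every panel, and WT 2 and WT 3 sit together at the top for Ripk3 and Cflar and at the bottom for Mlkl, Zbp1 and Fadd.

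Ripk1 (ENSMUSG00000021408, chromosome 13 from 34002363 to 34037147 in GRCm38), whose product is the scaffold and kinase recruited to TNF receptor 1, was at 75.2, 82.2, 81.5 and 69.3 CPM in WT and 73.2, 78.8, 64.5 and 74.2 CPM in Gsdmd-/- libraries, given here and below in the order of their numbers. The ranges lay almost on top of each other, with means of 77.1 ± 6.04 and 72.7 ± 5.96 CPM (SD, n = 4 each). Its log2 fold change was -0.08 (95% interval -0.29 to 0.12, adjusted p = 0.764 from edgeR), an interval that leaves out changes of 0.5 in either direction. Of the exon bases of Ripk1, 2.89% are shared with the opposite-strand gene Serpinb6a, which had 3625 to 5884 counts per library, and without strand information reads there cannot be assigned.

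Ripk3 (ENSMUSG00000022221, chromosome 14 from 55784995 to 55788865), which encodes the kinase that activates MLKL, was at 64.2, 86.0, 95 and 74.7 CPM in WT and 62.6, 54.2, 67.2 and 64.5 CPM in Gsdmd-/- libraries. WT 1 fell inside the Gsdmd-/- range and the other WT libraries lay above it. The Gsdmd-/- mean of 62.1 ± 5.59 CPM was 77.7% of the WT mean of 80.0 ± 13.4 CPM (SD, n = 4 each). The log2 fold change was -0.36 (95% interval -0.64 to -0.09, unadjusted p = 0.0153, adjusted p = 0.295 from edgeR). Its size depended on WT 2 and WT 3, for with both left out the log2 fold change was -0.16 (95% interval -0.42 to 0.09, adjusted p = 0.631).

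Mlkl (ENSMUSG00000012519, chromosome 8 from 111311797 to 111338177), the gene of the membrane-rupturing executor, was at 59.5, 44.4, 45.4 and 66.3 CPM in WT and 66.5, 55.6, 67.1 and 60.0 CPM in Gsdmd-/- libraries. WT 2 and WT 3 were below all Gsdmd-/- libraries, whereas WT 1 and WT 4 were among them. Its log2 fold change of 0.21 (95% interval -0.10 to 0.51, adjusted p = 0.593) was the highest of the 8 genes. Without WT 2 and WT 3 the sign turned and the value was close to 0, at -0.02 (95% interval -0.26 to 0.23), while without WT 4 it was 0.33 with an unadjusted p of 0.0232.

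Zbp1 (ENSMUSG00000027514, chromosome 2 from 173206612 to 173218923) varied more between WT libraries than any other of the 8 genes, at 11, 6.48, 6.11 and 14.8 CPM, a coefficient of variation of 43.1%. In the Gsdmd-/- libraries it was at 8.47, 8.22, 7.68 and 10.1 CPM, a coefficient of 12.0%. The Gsdmd-/- libraries thus lay between the lower pair and the higher pair of WT libraries. The lowest count behind these values was 100, in WT 3. Its log2 fold change was -0.16 with the widest interval of the 8 (95% interval -0.75 to 0.43, adjusted p = 0.854). Without WT 2 and WT 3, both remaining WT libraries were above all Gsdmd-/- libraries and Zbp1 passed the study's cutoff, with a log2 fold change of -0.59 (95% interval -0.95 to -0.22, unadjusted p = 0.00507, adjusted p = 0.139 from edgeR with 2 WT and 4 Gsdmd-/- libraries). Without WT 4 alone the sign turned, to 0.13.

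**Figure D2:**
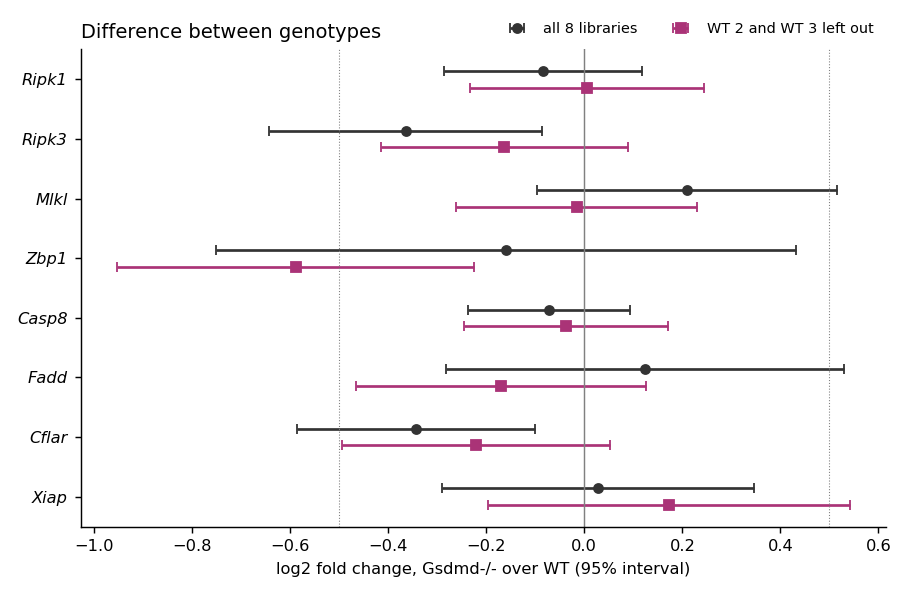
Log2 fold change of Gsdmd-/- over WT (horizontal axis) of the 8 genes with 95% intervals, from all 8 libraries (circles) and without WT 2 and WT 3 (squares), with dotted lines at -0.5 and 0.5. The intervals of Ripk3 and Cflar exclude 0 with all libraries and include it without WT 2 and WT 3, and that of Zbp1 does the opposite.

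On the apoptotic side, Casp8 (ENSMUSG00000026029, chromosome 1 from 58795374 to 58847503) was the steadiest of the 8 genes. It was at 74.7, 72.5, 77.6 and 67.7 CPM in WT and 67.9, 70.0, 72.1 and 68.4 CPM in Gsdmd-/- libraries, so that the highest library exceeded the lowest 1.15-fold. Its log2 fold change was -0.07 (95% interval -0.24 to 0.09, adjusted p = 0.752), and it kept its sign in all 17 alternative fits, from -0.11 to -0.04.

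Fadd (ENSMUSG00000031077, chromosome 7 from 144577318 to 144582463), the adaptor between death receptors and caspase-8, was at 14.4, 9.90, 10.4 and 17.6 CPM in WT and 13.9, 15, 15.4 and 12.7 CPM in Gsdmd-/- libraries. WT 2 and WT 3 were again the lowest libraries, and WT 4 was the highest. The log2 fold change was 0.12 (95% interval -0.28 to 0.53, adjusted p = 0.832) and -0.17 without WT 2 and WT 3, so no direction can be given. The antisense gene Faddos shares 6.12% of the exon bases of Fadd and had at most 6 counts in a library.

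Cflar (ENSMUSG00000026031, chromosome 1 from 58711508 to 58758884), the gene of the caspase-8 partner cFLIP, had the lowest p of the 8 genes. Its level was 97.3, 109, 105 and 83.4 CPM in WT and 74.9, 85.6, 67.4 and 83.1 CPM in Gsdmd-/- libraries. The genotypes met at 1 point only, where Gsdmd-/- 2 lay just above WT 4. The means were 98.7 ± 11.3 and 77.7 ± 8.25 CPM (SD, n = 4 each), which put Gsdmd-/- at 78.8% of WT. Its log2 fold change was -0.34 (95% interval -0.59 to -0.10, unadjusted p = 0.0101, adjusted p = 0.264 from edgeR). The value was negative in all 17 alternative fits, from -0.41 to -0.22, and the unadjusted p was under 0.05 in 16 of them. The exception was the fit without WT 2 and WT 3, in which the log2 fold change was -0.22 (95% interval -0.49 to 0.05, adjusted p = 0.507).

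Xiap (ENSMUSG00000025860, X chromosome from 42059679 to 42109656), the gene of the caspase inhibitor, was at 92.3, 102, 89.3 and 64.6 CPM in WT and 81.3, 103, 77.8 and 93.4 CPM in Gsdmd-/- libraries. Libraries of both genotypes were spread over the whole range, with WT 4 as the lowest. The log2 fold change was 0.03 (95% interval -0.29 to 0.35, adjusted p = 0.958) and 0.17 without WT 2 and WT 3 (95% interval -0.20 to 0.54).

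Cflar and Casp8 lie side by side on chromosome 1 in the same orientation, with a gap of 36489 bases that holds a single annotated gene, the processed pseudogene Gm3841. Between the lowest and the highest library Casp8 differed 1.15-fold and Cflar 1.62-fold. The promoters of both are shown with that of Ripk3, because Cflar and Ripk3 had the lowest p-values and Casp8 had the smallest spread. Each is the RefSeq window of GRCm38.p6 from 250 bases before to 50 after an annotated start, printed 5′ to 3′ on the gene's strand. They lie at chr1:58711241-58711540 on the plus strand for Cflar, chr1:58802252-58802551 on the plus strand for Casp8 and chr14:55788808-55789107 on the minus strand for Ripk3. Capitals mark matches to AANNGAAA, the core bound by interferon regulatory factors, on either strand.
Cflar promoter: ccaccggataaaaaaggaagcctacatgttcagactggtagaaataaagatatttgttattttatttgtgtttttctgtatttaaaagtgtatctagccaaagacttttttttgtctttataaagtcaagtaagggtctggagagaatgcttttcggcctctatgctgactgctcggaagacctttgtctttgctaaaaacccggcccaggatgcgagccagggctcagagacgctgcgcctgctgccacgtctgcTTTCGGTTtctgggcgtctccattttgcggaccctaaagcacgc
Casp8 promoter: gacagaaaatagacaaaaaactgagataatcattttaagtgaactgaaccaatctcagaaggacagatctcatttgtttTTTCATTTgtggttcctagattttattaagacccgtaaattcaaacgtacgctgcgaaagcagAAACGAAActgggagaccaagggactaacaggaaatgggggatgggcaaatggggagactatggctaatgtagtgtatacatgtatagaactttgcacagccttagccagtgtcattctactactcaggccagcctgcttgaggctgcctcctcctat
Ripk3 promoter: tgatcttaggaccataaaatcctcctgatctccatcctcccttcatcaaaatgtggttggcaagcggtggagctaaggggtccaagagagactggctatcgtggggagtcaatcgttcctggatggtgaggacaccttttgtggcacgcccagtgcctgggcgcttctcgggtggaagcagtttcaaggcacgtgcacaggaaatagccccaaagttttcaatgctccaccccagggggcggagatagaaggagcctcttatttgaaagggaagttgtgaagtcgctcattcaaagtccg

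The Casp8 window lies inside the GENCODE gene, downstream of its first annotated base, and holds 2 matches, whose first bases are at -171 and -108 from the RefSeq start. The Cflar window holds 1 match, whose first base is at 7 after the start, and the Ripk3 window holds none. RefSeq windows were found for 7 of the 8 genes, 10 windows in all, and none for Zbp1. AANNGAAA was found in 3 of the 10, the third being the second start of Ripk1, and in 23.9% of all 32851 windows of this length. TTCNNNGAA, a motif bound by STAT factors, was found in that same Ripk1 window only, 1 of 10, and in 8.30% of all windows. In this window a match to each motif overlaps the other.

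Levels of different genes were compared per kilobase of exon, with exons merged over all GENCODE M21 transcripts of a gene. These lengths ran from 2292 bases for Ripk3 and 2303 for Mlkl to 12669 for Cflar, and the order below depends on them. By mean CPM alone, Cflar (98.7 in WT, 77.7 in Gsdmd-/-) and Xiap (87.1 and 88.8) were above Ripk3 (80.0 and 62.1). Which transcripts the cells used was not examined. Over the 8 libraries, Ripk3 had the highest level at 31.0 ± 5.87 CPM per kilobase, followed by Mlkl at 25.2 ± 3.96 and Casp8 at 24.7 ± 1.23 CPM per kilobase (SD over 8 libraries). The ranges of these 3 neighbours in the order overlapped. Xiap (9.29 ± 1.36), Ripk1 (8.97 ± 0.723) and Cflar (6.96 ± 1.14 CPM per kilobase) formed a middle group, in which neighbours also overlapped and which did not reach the range of Casp8. Fadd (3.5 ± 0.664) and Zbp1 (2.58 ± 0.807 CPM per kilobase) were the lowest, below every library of Cflar. The first place of Ripk3 came from the WT libraries, with a level of 34.9 ± 5.84 CPM per kilobase beside 25.3 ± 1.44 for Casp8 and 23.4 ± 4.68 for Mlkl. In the Gsdmd-/- libraries Ripk3 and Mlkl were level, at 27.1 ± 2.44 and 27.1 ± 2.40 CPM per kilobase (SD, n = 4 each).

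Across libraries the 8 genes did not move as a unit. Zbp1, Fadd and Mlkl had their 2 lowest libraries in WT 2 and WT 3, and Ripk1, Ripk3 and Cflar had their 2 highest there, 3 of 8 in each case, beside 17.5% and 17.9% of all genes tested. A list of 15 interferon-stimulated genes was set beside them, because Zbp1 is induced by interferon. In 11 of the 15, WT 2 and WT 3 were the lowest libraries, beside the same 17.5% of all genes. Averaged over the list, log2 CPM was 3.84, 2.31, 2.34 and 4.02 in WT and 3.67, 3.18, 3.16 and 3.11 in Gsdmd-/- libraries 1 to 4. WT libraries thus fell on both sides of the Gsdmd-/- libraries, with WT 2 and WT 3 below and WT 1 and WT 4 above, as for Zbp1. Within the Gsdmd-/- libraries the order differed. There the list was highest in library 1 and lowest in library 4, whereas Zbp1 was highest in library 4, at 10.1 CPM. Between the genotypes the list had a median log2 fold change of -0.06, and 1 of its 15 genes (6.67%) passed the study's cutoff and was lower, beside 3.28% of all genes. That gene was Stat2, which encodes a transcription factor of the type I interferon response, at 44.1, 52.5, 47.8 and 41.7 CPM in WT and 35.7, 34.9, 23.2 and 26.7 CPM in Gsdmd-/- libraries. Here, as for 7.60% of all genes, the genotypes did not overlap, at a log2 fold change of -0.63 ± 0.145 (SE, adjusted p = 0.124 from edgeR). The adjusted p of Stat2 was 0.00994 with the exact test of edgeR (1.91% of all genes under 0.05), 0.00937 with DESeq2 (2.26% of all genes) and 0.0534 to 0.313 in the other alternative fits. Without WT 2 and WT 3 its log2 fold change was -0.51 (adjusted p = 0.214), and it still passed the study's cutoff.

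**Figure D3:**
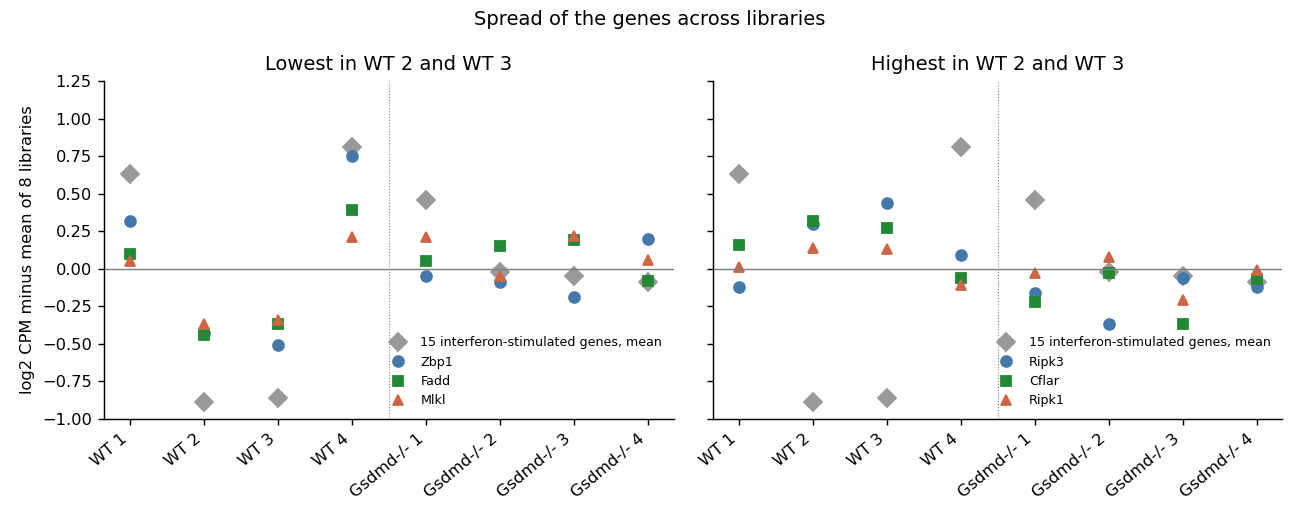
Log2 CPM minus the mean of the 8 libraries (vertical axis) for each library (horizontal axis), with grey diamonds for the mean of 15 interferon-stimulated genes. Zbp1, Fadd and Mlkl (left) lie between -0.51 and -0.34 in WT 2 and WT 3, and Ripk3, Cflar and Ripk1 (right) lie between 0.13 and 0.44 there.

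For the 2 genes of the 8 with the largest SD of log2 CPM, Zbp1 (0.415) and Fadd (0.283), the genes with the most similar profile were looked for among 9612 genes with a mean of at least 5 CPM. For Zbp1 these were Ctdp1 (Pearson's r 0.981 over 8 libraries), Zranb3 (0.980) and Was (0.968). For Fadd they were Mrpl42 (0.987), Smarcb1 (0.986) and Mrpl37 (0.979). With WT 2 and WT 3 left out, r over the other 6 libraries was between 0.923 and 0.997 for these pairs. These r are a description, taken as the highest among many genes over few libraries.

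Ratios between the genes within a library do not depend on library scaling, and 4 of them were computed after the levels had been seen, so they are given without a test. How often the ratios of other gene pairs separate the genotypes was not examined. The ratio of Cflar to Casp8 CPM was 1.30, 1.5, 1.35 and 1.23 in WT and 1.10, 1.22, 0.936 and 1.21 in Gsdmd-/- libraries. All Gsdmd-/- libraries were below all WT libraries, though the closest pair, WT 4 and Gsdmd-/- 2, nearly met. The ratio of Mlkl to Ripk3 was 0.927, 0.516, 0.478 and 0.887 in WT and 1.06, 1.03, 0.999 and 0.929 in Gsdmd-/- libraries. Here the genotypes did not overlap either, but WT 1 and Gsdmd-/- 4 were all but equal, and the low WT mean of 0.702 ± 0.238 (SD, n = 4) came from WT 2 and WT 3. Ripk3 to Casp8 (0.859 to 1.22 in WT, 0.775 to 0.944 in Gsdmd-/-) and Ripk1 to Ripk3 (0.859 to 1.17 and 0.960 to 1.45) overlapped between the genotypes.

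**Figure D4:**
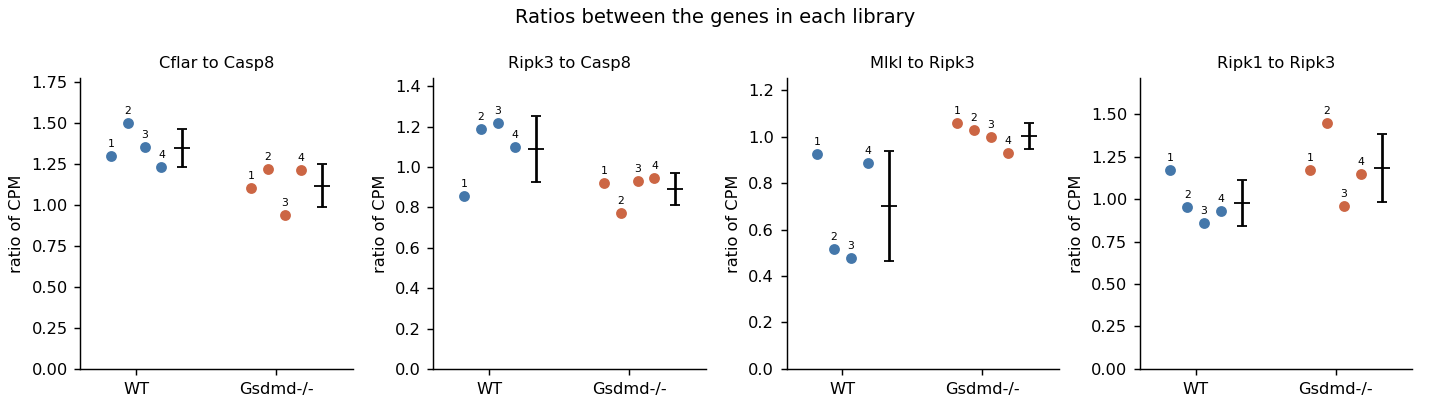
Ratio of the CPM of gene pairs (vertical axes, from 0) in each WT (blue) and Gsdmd-/- (orange) library, with library numbers and mean ± SD. Cflar to Casp8 is at most 1.22 in Gsdmd-/- and at least 1.23 in WT libraries, and the Mlkl to Ripk3 ratio is lowest in WT 2 and WT 3.

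Other genes of these pathways were listed by function, 56 in all, and 54 of them were tested. Tnfsf10 and Fasl, the genes of the death ligands TRAIL and FasL, had at most 13 counts in a library and were not tested. At the study's cutoff 0 of the 54 were higher (1.54% of all genes) and 2 were lower (3.70%), close to the 3.28% of all genes, and none had an adjusted p under 0.05 with edgeR, against 1 with its exact test (1.91% of all genes), 3 with DESeq2 (2.26% of all genes) and 0 with limma voom (0.333% of all genes). At an unadjusted p under 0.05 and any fold change, 8 were lower (14.8%, beside 7.30% of all genes) and 1 was higher (4.74% of all genes). The median log2 fold change of the 54 was -0.03. Complete separation of the genotypes was seen for 7 of them (13.0%, beside 7.60% of all genes), all lower in Gsdmd-/- macrophages.

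Traf2, the adaptor that brings cIAP ubiquitin ligases to TNF receptor complexes, was among those that passed the cutoff. It was at 13.8, 15.8, 17.5 and 17.3 CPM in WT and 11.6, 7.98, 12.4 and 11.2 CPM in Gsdmd-/- libraries. Every Gsdmd-/- library was below every WT library, and the log2 fold change was -0.58 ± 0.150 (SE, adjusted p = 0.175). It had an unadjusted p under 0.05 in all 17 alternative fits, but its log2 fold change was -0.46 without Gsdmd-/- 2, which is short of the cutoff.

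Tnfaip3, which encodes the ubiquitin-editing enzyme A20 that restrains NF-κB signaling and cell death, was the other. It was at 76.1, 42.6, 41.2 and 75.2 CPM in WT and 40.3, 39.2, 40.9 and 39.9 CPM in Gsdmd-/- libraries. The Gsdmd-/- libraries were nearly identical, WT 2 and WT 3 lay only just above them, and WT 1 and WT 4 were far above. With all libraries its log2 fold change came to -0.55 (SE 0.20, adjusted p = 0.319). Leaving out WT 2 and WT 3 removes the WT libraries nearest the Gsdmd-/- level and keeps 2 WT and 4 Gsdmd-/- libraries. In that fit the log2 fold change was -0.92 (95% interval -1.11 to -0.73, adjusted p = 0.00183 from edgeR, beside 1.21% of all genes under 0.05). Without WT 1 or WT 4 the unadjusted p was above 0.05.

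Among ligands and receptors, 3 of 11 tested genes were lower at an unadjusted p under 0.05 (7.30% of all genes) and 1 was higher (4.74% of all genes). Tnfrsf1b, the gene of TNF receptor 2, was at 561 to 634 CPM in WT and 488 to 530 CPM in Gsdmd-/- libraries (log2 fold change -0.26, SE 0.0786, adjusted p = 0.235). Tnfrsf10b, the mouse TRAIL receptor gene, was at 10.5 to 11.4 CPM in WT and 8.18 to 9.29 CPM in Gsdmd-/- libraries (log2 fold change -0.32, adjusted p = 0.273). Neither overlapped between the genotypes. Tnfrsf1a, the gene of TNF receptor 1, which starts the RIPK1 complex, had a log2 fold change of -0.21 with overlap, and Ifngr2, a chain of the interferon gamma receptor, had one of 0.24. Without WT 2 and WT 3 the log2 fold changes were -0.24 for Tnfrsf1b, -0.29 for Tnfrsf10b, -0.20 for Tnfrsf1a and 0.16 for Ifngr2, the last 2 with an unadjusted p above 0.05. Tnf itself was at 35.3, 14.8, 17.6 and 47.5 CPM in WT and 36.1 to 52.1 CPM in Gsdmd-/- libraries, with WT 2 and WT 3 lowest again (log2 fold change 0.63, adjusted p = 0.489, and 0.10 without WT 2 and WT 3).

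The other groups had at most 1 gene each at an unadjusted p under 0.05, beside 7.30% of all genes lower and 4.74% higher. Tab1, which encodes an activating subunit of the kinase TAK1, was at 17.7 to 22.4 CPM in WT and 15.3 to 16.4 CPM in Gsdmd-/- libraries (log2 fold change -0.40, adjusted p = 0.176). Adar, the gene of an RNA editing enzyme that limits the activation of ZBP1, was at 55.9 to 70.3 CPM in WT and 36.2 to 53.8 CPM in Gsdmd-/- libraries (log2 fold change -0.37, adjusted p = 0.310). For Adar the unadjusted p was above 0.05 without WT 1, at a log2 fold change of -0.30, and the value was -0.26 without Gsdmd-/- 3. Itpk1, an inositol phosphate kinase gene whose pathway supports MLKL activation, was at 36.8 to 51.6 CPM in WT and 35.2 to 36.8 CPM in Gsdmd-/- libraries (log2 fold change -0.34, adjusted p = 0.305). WT 2 and WT 3 were its highest libraries, and without them its log2 fold change was -0.12 (95% interval -0.33 to 0.09, adjusted p = 0.694). Without WT 3 alone its unadjusted p was also above 0.05. In none of these 3, named for the lowest p of their groups, did the genotypes overlap, beside 7.60% of all genes. For Itpk1 the closest libraries were equal once rounded. Of 7 genes of executioner and mitochondrial apoptosis, 6 with a log2 fold change above 0, none had an unadjusted p under 0.05, with Casp6, an executioner caspase gene, the nearest (log2 fold change 0.32, adjusted p = 0.555). The value of Casp6 was 0.08 without WT 2 and WT 3 and 0.53 without WT 4 (adjusted p = 0.122). Of 4 genes for IAPs and their antagonists, Birc6, a large ubiquitin ligase gene, was the nearest (log2 fold change -0.25, adjusted p = 0.708), at -0.14 without WT 2 and WT 3 and -0.42 without WT 4 (adjusted p = 0.216).

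**Figure D5:**
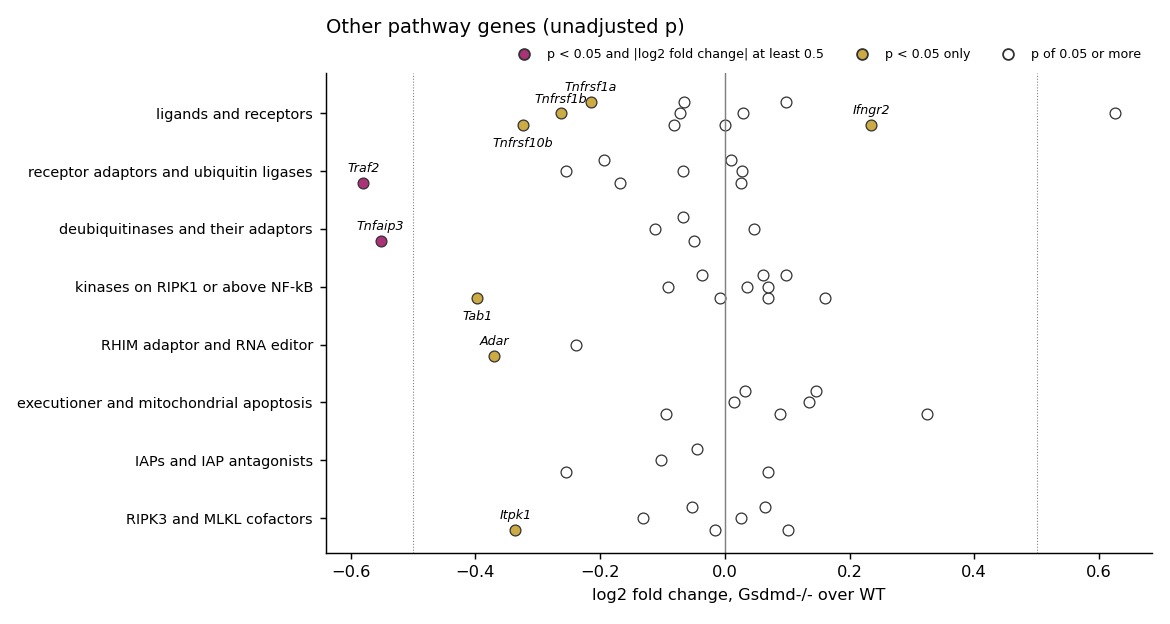
Log2 fold change of Gsdmd-/- over WT (horizontal axis) of the 54 other pathway genes tested, by functional group. Filled purple points (Traf2 and Tnfaip3) passed the study's cutoff, yellow points had an unadjusted p under 0.05 with a smaller change, and most of the labelled points lie left of 0.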

How the data were processed

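The deposited table holds the reads counted per gene in 8 RNA-seq libraries (TRIzol RNA, TruSeq libraries), with no normalization by the authors and each column matched to 1 sample by its label. The labels name mouse build mm10, while the aligner, counting tool, strand setting and annotation are not given in the sources used here. Of 54532 genes, 54495 were found in GENCODE M21 (GRCm38), used for positions and exon lengths.

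Counts were filtered with filterByExpr, scaled by TMM and compared by the two-sided quasi-likelihood test of edgeR 4.0.16 (R 4.3.3) with genotype as the only term, on 12911 genes, with Benjamini-Hochberg adjustment over all of them. CPM use TMM-scaled library sizes, and log2 CPM a prior count of 2. The code was tested on simulated counts. limma 3.58.1, DESeq2 1.42.0, RLE and upper-quartile scaling, other filters on low counts, leaving out each library or WT 2 and WT 3, a replicate block and other fold change thresholds were tried as alternatives. The 8 genes and all lists were chosen with earlier results of these data known. Named pathway genes are those at the cutoff and the lowest p of each group, for interferon genes the lowest p, plus the genes most similar to the 2 most variable of the 8. Tnfrsf10b, Tnfrsf1a, Ifngr2, Tnf, Fasl, Tnfsf10, Xaf1, and the marker genes given singly, the ratios and the motifs were chosen after values were seen. Replicate numbers did not pair the libraries.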

Additional observations from a re-analysis of the deposited data

Results flagged for a closer look

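Of 36 groups of 4 libraries examined, 1 held a library far from the rest, where chance gives about 1 in 20. Tab1 was at 17.7 CPM in WT 1 and at 21.7 to 22.4 CPM in the other WT libraries, a gap of 0.842 of the whole range that is past the 95% limit of Dixon's test. Without WT 1 its log2 fold change was -0.47, and with all libraries it was -0.40.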

How the results depend on the processing

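In the 17 alternative fits, an adjusted p under 0.05 was reached by none of the 8 genes. With WT 2 and WT 3 both left out, 1 of them (Zbp1) was lower at the study's cutoff (3.15% of all genes), and with no minimum fold change 2 were (Ripk3 and Cflar, beside 7.30% of all genes). In the fit without WT 2 and WT 3 the signs of Ripk1 (0.00511), Mlkl (-0.0158) and Fadd (-0.17) turned, and with single libraries left out Zbp1 ran from -0.32 to 0.13 and Xiap from -0.0896 (without WT 4) to 0.11. Ripk3 had an unadjusted p above 0.05 without WT 3 and without WT 2 and WT 3. Of the other pathway genes, the count higher was 1 (Tnf) with limma voom, DESeq2, no filter on low counts or the replicate block, 1 (Ifngr2) with no minimum fold change, and 0 to 2 with single libraries left out, where the 2 were Tnf and Casp6 without WT 4. The share of all genes higher was 1.43% to 1.85% in the first 4 of these fits, 4.74% with no minimum and at most 2.42% with single libraries left out. The count lower was 1 (Traf2) with limma voom or the replicate block, 0 at a log2 fold change of at least 1, 8 with no minimum, and 1 to 2 with single libraries left out, with Traf2 alone without WT 1 or WT 4 and Tnfaip3 alone without Gsdmd-/- 2, and Xaf1 was added without WT 2 and WT 3. The share of all genes lower was 2.48% and 2.77% in the first pair, 7.30% with no minimum and 2.27% to 5.37% with single libraries left out. An adjusted p under 0.05 was reached by 1 gene (Traf2) with the exact test of edgeR (1.91% of all genes), 3 (Tnfrsf1b, Tab1 and Traf2) with DESeq2 (2.26%), and 1 (Tnfaip3) without WT 2 and WT 3 (1.21%). Of the interferon-stimulated genes named, Stat2 reached it with the exact test of edgeR and with DESeq2. The causes of these differences were not tested. Libraries share only a number, as same-numbered WT and Gsdmd-/- libraries had correlations of deviations of 0.0268, 0.182, 0.0412 and -0.201, so the replicate block is not a pairing. Zbp1 (100 to 244 counts) and Fadd (162 to 290 counts) had the fewest counts and the widest intervals of the 8.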
